A study of Rattus norvegicus with 74 samples.

Results

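MicroRNA-204 and its close relative microRNA-211 were followed in whole kidney of F344 rats through the life span. Of the 677 rat miRNAs on the array, 4 were forms of these precursors: rno-miR-204-5p, rno-miR-204-3p, rno-miR-211-5p and rno-miR-211-3p. The members were the forms that at least 1 array detected, and these were 2 of the 311 miRNAs detected on any array, miR-204-5p and miR-211-3p. Rno-miR-204-3p, the opposite arm of miR-204, was named as a member beforehand, but no array detected it, and neither did any array detect rno-miR-211-5p.

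Kidney RNA from 36 female and 38 male F344 rats, each hybridized to its own single-colour Agilent array, was measured at 8 ages. Females and males were compared at 2, 5, 6 and 8 weeks, at 15 and 21 weeks, and at 78 and 104 weeks of age, with 5 arrays a group, except for 4 in females of 2, 5, 8 and 21 weeks and in males of 8 and 104 weeks. The sex of each animal is that of its own sample labels, although the housing protocol given with all 74 samples names females alone. All animals were untreated, from a single inbred strain and independent of each other, and the females had not been synchronized for the estrous cycle. Whole ground tissue was extracted, so that in these samples fewer cells of a type and less RNA per cell cannot be told apart. Between 190 and 264 miRNAs were detected per array. The animals of up to 8 weeks lay on 5 slides and the older ones on 5 more, except 15-week female replicate 5, which lay with the younger ones, so that a difference between these blocks of ages cannot be told apart from a difference between slides, while both sexes of an age shared slides.

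A miRNA is cut from a hairpin precursor as a short duplex, of which either strand, the 5p or the 3p arm, can be loaded into the silencing complex. The loaded strand recognizes its targets mainly through the seed, bases 2 to 8 from its 5′ end. MiR-204 is known as a miRNA of epithelia, with high levels in kidney tubules, retinal pigment epithelium and choroid plexus, whereas miR-211 is best known from melanocytes. Their precursors lie within genes of the transient receptor potential melastatin family of cation channels.

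The mature strands are shown because the 5p arms are near-identical and the 3p arms are not, although the array measured a 5p arm of miR-204 and a 3p arm of miR-211. They are from RefSeq (assembly GRCr8), written 5′ to 3′ with the seed in capitals.
rno-miR-204-5p: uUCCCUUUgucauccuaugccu
rno-miR-211-5p: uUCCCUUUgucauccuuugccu
rno-miR-204-3p: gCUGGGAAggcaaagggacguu
rno-miR-211-3p: gGCAAGGAcagcaaaggggg

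MiR-204-5p and miR-211-5p are identical at 21 of 22 positions and differ by A17U, counted from 1 at the 5′ end with the base of miR-204-5p first. Of the 693 mature rat miRNAs in the RefSeq table, no others carry the seed UCCCUUU. The seeds of miR-204-3p and miR-211-3p are shared with no other mature miRNA of that table. The 3p arms have a run of 8 bases in common (gcaaaggg). Outside the 4 forms, the longest run that miR-211-3p shares with a mature rat miRNA is 9 bases, with miR-3569 and miR-678.

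The precursors are shown with both mature arms in capitals. Mir204 lies at chr1:229743461-229743570 on the plus strand, within the span of Trpm3 and on the strand of that gene, with miR-204-5p at chr1:229743493-229743514. Mir211 lies at chr1:127189328-127189433 on the plus strand, within the span of Trpm1 and on its strand, with miR-211-3p at chr1:127189389-127189408.
Mir204: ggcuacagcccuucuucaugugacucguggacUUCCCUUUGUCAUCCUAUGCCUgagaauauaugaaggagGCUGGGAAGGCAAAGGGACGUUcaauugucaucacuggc
Mir211: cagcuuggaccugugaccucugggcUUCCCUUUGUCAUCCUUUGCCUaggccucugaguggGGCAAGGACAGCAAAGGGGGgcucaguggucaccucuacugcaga

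Detection separated the 4 forms completely. MiR-204-5p and miR-211-3p were detected on 74 of 74 arrays, and miR-204-3p and miR-211-5p on 0 of 74. Each form had 20 spots on an array, or 1480 over the 74 arrays. Of these, 1334 spots of miR-204-5p (90.1%) and 1469 of miR-211-3p (99.3%) were well above background. The corresponding counts were 3 for miR-204-3p (0.203%) and 4 for miR-211-5p (0.270%).

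The same split was seen probe by probe, in the mean background-subtracted signal of the spots of a probe on an array. The brighter of the probes for miR-204-5p lay between 24.4 and 249 and the dimmer between 4.90 and 49.6. For miR-204-3p, each of 4 probes had a median at or below -0.338, and the highest value on any array was 7.58. For miR-211-5p, the medians of 3 probes were 0.0783, 0.432 and 0.685, and the highest value was 14.9. The probes of miR-211-3p had medians of 27.4 and 27.1 and a lowest value of 10.9. Thus the spots for miR-211-5p gave almost no signal on arrays where miR-204-5p, which differs from it at a single base, was measured throughout. For miR-204-3p and miR-211-5p no level, fold or sex difference is given, since they were not told from background.

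**Figure D1:**
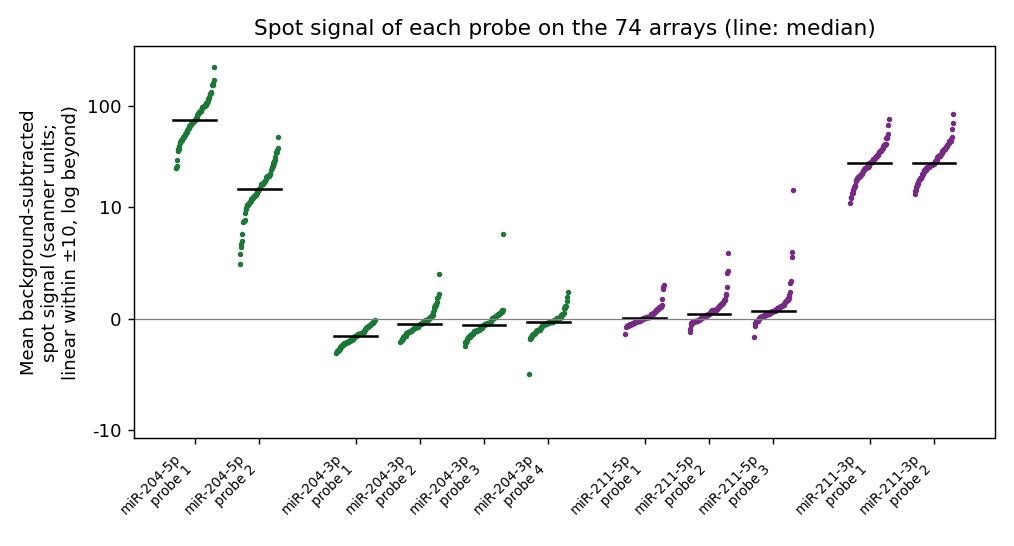
Mean background-subtracted spot signal of each probe for the 4 forms (vertical axis in scanner units, linear near zero and logarithmic beyond); each point is 1 of the 74 arrays and each black line a median. The probes of miR-204-5p and miR-211-3p sit above zero on every array, whereas the medians for miR-204-3p and miR-211-5p lie between -1.56 and 0.685.

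Levels are given below as normalized intensity, the total gene signal of the scanner's software divided by the 75th percentile of the array, and are not compared between miRNAs. MiR-204-5p ranged from 0.215 to 0.901 over the arrays with a median of 0.375, and miR-211-3p from 0.121 to 0.552 with a median of 0.229. The software's own error of the total gene signal was 8.31% to 12.3% for miR-204-5p and 7.30% to 15.5% for miR-211-3p. Differences are given on the log2 scale, male minus female or later minus earlier, with p-values from limma adjusted by the Benjamini-Hochberg method over the 311 detected miRNAs. To be called, a difference had to reach 1.5-fold with an adjusted p below 0.05. Whether the arrays of the groups overlapped is a description, and its share over the 311 miRNAs was not counted.

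MiR-204-5p was higher in male than in female kidney at 15 and 21 weeks of age. At 21 weeks it was at its highest of the life span in males, with a mean of 0.832 ± 0.0752 (SD, n = 5), against 0.410 ± 0.0351 (SD, n = 4) in females. The sex difference was not called at any other age.

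In the 21-week males the 5 arrays gave 0.717, 0.817, 0.826, 0.899 and 0.901, and in the 21-week females the 4 arrays gave 0.376, 0.397, 0.406 and 0.459. Every male array lay above every female array. The log2 difference was 1.02 (SE 0.115, 95% interval 0.79 to 1.25), a 2.03-fold higher level in males, with an adjusted p of 2.04e-10. Of all 311 miRNAs, 15 were called between the sexes at this age (4.82%), 7 of them with higher levels in males. MiR-204-5p had the 9th largest difference among these calls. On the 4 slides that held both sexes of this age the log2 differences were between 0.97 and 1.18. Their sign follows from the lack of overlap.

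In the 15-week males the arrays gave 0.485, 0.559, 0.623, 0.627 and 0.635, and in the 15-week females 0.301, 0.374, 0.379, 0.395 and 0.400. Again the groups did not overlap. The difference was 0.66 (SE 0.109, 95% interval 0.45 to 0.88), or 1.58-fold, with an adjusted p of 4.48e-06. At this age 11 of 311 miRNAs were called (3.54%), and miR-204-5p was 1 of the 2 calls with higher levels in males. On the 4 slides that held both sexes the difference was 0.28 to 1.05, with a sign that again follows from the lack of overlap. The calls at 15 and 21 weeks were made without each array in turn, with differences of 0.59 to 0.73 and 0.98 to 1.08. They were not made without scaling between arrays, where the differences were 0.45 (adjusted p = 0.478) and 0.96 (adjusted p = 0.0606). Under normexp background correction with an offset of 50 added to every signal, the adjusted p stayed at 3.09e-07 and 4.40e-10 but the differences of 0.32 and 0.42 were below the fold threshold.

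At 8 weeks the male arrays gave 0.377, 0.456, 0.461 and 0.522 and the female arrays 0.323, 0.336, 0.352 and 0.360, which did not overlap. The difference was 0.40 (SE 0.121, adjusted p = 0.0507), 1.32-fold, and was not called. That the male level was higher on each of the 3 slides with both sexes follows from the lack of overlap. At this age 4 of 311 miRNAs were called (1.29%). At 6 weeks the groups overlapped, from 0.271 to 0.364 in males and 0.215 to 0.289 in females, with a difference of 0.33 (SE 0.109, adjusted p = 0.171), and 1 miRNA was called (0.322%).

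In the youngest animals the ranges of the sexes overlapped almost fully. At 2 weeks the female arrays lay between 0.246 and 0.323 and the male arrays between 0.268 and 0.316, with a difference of 0.12 (95% interval -0.11 to 0.35, adjusted p = 0.645). At this age 12 of 311 miRNAs were called (3.86%). At 5 weeks the ranges were 0.238 to 0.304 in females and 0.228 to 0.304 in males, with a difference of -0.01 (95% interval -0.24 to 0.22, adjusted p = 1). The signs at 2 and 5 weeks turned with the scaling, to -0.05 and 0.38 at the most distant alternatives, and neither was called under any. At 5 weeks 0 of 311 miRNAs were called with limma (0%) and 0 with the methods' t-test, and 10 had an unadjusted limma p under 0.05.

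In the oldest animals the male values came back towards the female values. At 78 weeks the male arrays gave 0.313, 0.443, 0.516, 0.538 and 0.544 and the female arrays 0.351, 0.408, 0.433, 0.451 and 0.460. A single male array lay below all females and 3 lay above all of them. The difference was 0.14 (95% interval -0.08 to 0.36, adjusted p = 0.408), at an age at which 21 of 311 miRNAs were called (6.75%). At 104 weeks the 4 male arrays, 0.474, 0.482, 0.513 and 0.578, lay just above the 5 female arrays, 0.371 to 0.460. That difference was 0.26 (95% interval 0.03 to 0.49, adjusted p = 0.104) and was not called, with 19 of 311 miRNAs called at this age (6.11%).

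**Figure D2:**
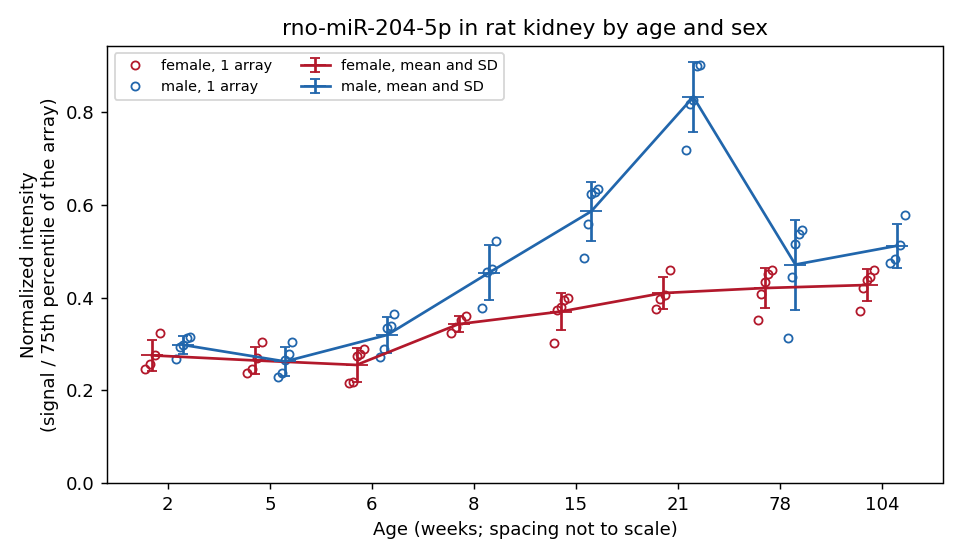
Normalized intensity of miR-204-5p (vertical axis, signal over the array's 75th percentile) at 8 ages (horizontal axis, in weeks, not to scale); circles are single arrays of females (red) and males (blue), and lines join group means with SD bars. The 5 males of 21 weeks lie between 0.717 and 0.901, above all other arrays.

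The sex difference of miR-204-5p itself changed with age. The interaction of age and sex had an adjusted p of 5.21e-06 in limma's F test over 7 terms, in which 86 of 311 miRNAs passed (27.7%). The change of the sex difference from 21 to 78 weeks was -0.88 (SE 0.158, adjusted p = 3.65e-05) and was called, as it was for 17 of 311 miRNAs (5.47%). It was not called with the 75th percentile taken over all 677 miRNAs (-0.71, adjusted p = 0.180), without scaling (-0.43, adjusted p = 0.976) or with normexp (-0.27, adjusted p = 0.00604). Without scaling the interaction had an adjusted p of 0.930. The other 6 changes between consecutive ages were not called, the smallest adjusted p among them being 0.388, from 15 to 21 weeks (0.36, SE 0.158).

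Within males, miR-204-5p differed between ages with an adjusted p of 4.50e-13, and it was 3.18-fold higher at 21 than at 5 weeks, a log2 difference of 1.67. Within females the adjusted p was 2.03e-08 and the widest gap was 1.68-fold, between 6 and 104 weeks (0.75). Age effects were called for 141 of 311 miRNAs in males (45.3%) and for 114 in females (36.7%). Of the 28 pairs of ages, 16 in males and 8 in females differed by 1.5-fold or more with an unadjusted p below 0.05.

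The age effect of females spans the slide blocks. Among the ages of 15 to 104 weeks alone the largest difference in females was 0.21 (adjusted p = 0.274), and among 2 to 8 weeks it was 0.44 (adjusted p = 0.0316, below the fold threshold). In males the age effect was called within each block of ages. Female means went from 0.255 ± 0.0357 (SD, n = 5) at 6 weeks to 0.343 ± 0.0165 (SD, n = 4) at 8 weeks. At 15 weeks the mean was 0.370 ± 0.0398 (SD, n = 5), and it was 0.427 ± 0.0341 (SD, n = 5) in the females of 104 weeks.

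The largest step between consecutive ages was the fall of miR-204-5p in males from 21 to 78 weeks. The log2 difference was -0.84 (SE 0.109, 95% interval -1.06 to -0.63, adjusted p = 8.29e-09), or 1.80-fold lower, and the 5 arrays of 78 weeks, at most 0.544, lay below the 5 arrays of 21 weeks, at least 0.717. In this step 34 of 311 miRNAs were called (10.9%), 23 of them lower at 78 weeks, and the size of the change ranked miR-204-5p 10th among them. With the 75th percentile over the 166 miRNAs that every array detected the step was -0.57 (adjusted p = 0.000307), just under the fold threshold. Females had 0.03 (SE 0.115, adjusted p = 0.985) in the same interval.

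Over all 14 steps of both sexes, 227 of 4354 tests were called (5.21%), and for miR-204-5p the male step from 21 to 78 weeks was the only call. In 3 further steps it had an adjusted p under 0.05 with a fold under 1.5. They were 6 to 8 weeks in females (0.44, SE 0.115, adjusted p = 0.0263), 6 to 8 weeks in males (0.51, SE 0.115, adjusted p = 0.00745) and 15 to 21 weeks in males (0.51, SE 0.109, adjusted p = 0.00143). The male step from 8 to 15 weeks, which crosses the slide blocks, was 0.37 (SE 0.115, adjusted p = 0.0502).

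In the order of the 16 group means, the first 5 places were males of 21, 15, 104, 78 and 8 weeks, followed by females from 104 down to 8 weeks of age. The last 6 places were taken by both sexes at 6, 2 and 5 weeks, with the female 6-week group lowest. Of the 15 neighbouring groups in this order, only males of 21 and 15 weeks had ranges that did not overlap. The other 14 neighbours could not be told apart by their ranges.

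Each probe of miR-204-5p alone gave the calls at 15 and 21 weeks. The brighter probe alone had differences of 1.03 (adjusted p = 8.47e-10) at 21 weeks and 0.67 (adjusted p = 1.36e-05) at 15 weeks. The dimmer probe alone had 0.99 (adjusted p = 3.72e-07) and 0.66 (adjusted p = 0.000413). Over the 74 arrays the probes correlated at r = 0.938, and at 0.666 after group means were removed.

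**Figure D3:**
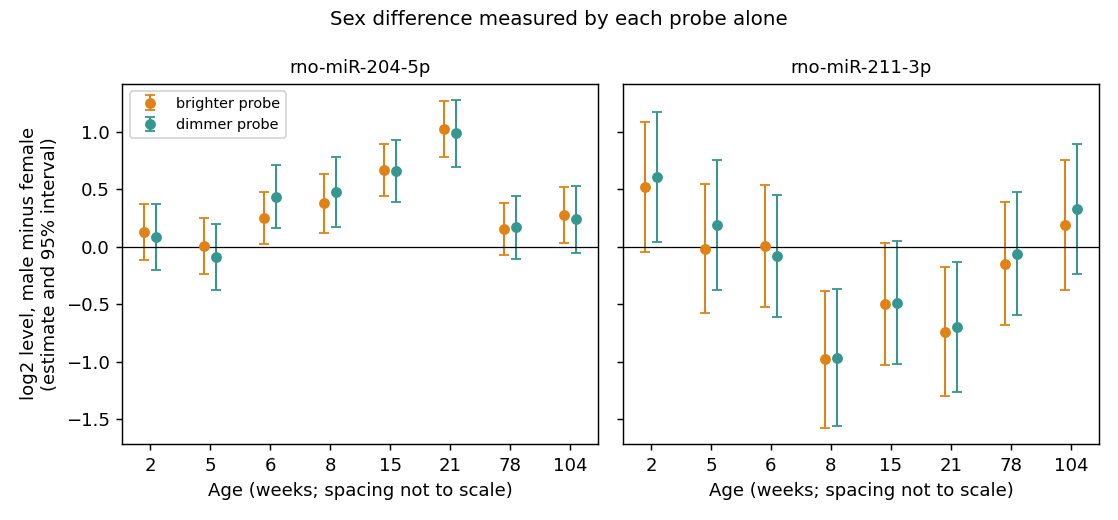
Log2 sex difference, male minus female (vertical axis), at each age in weeks (horizontal axis, not to scale), measured by the brighter (orange) and the dimmer (teal) probe of miR-204-5p (left) and miR-211-3p (right) alone; bars are 95% intervals of the limma fit. Both probes of miR-204-5p give differences of 0.99 to 1.03 at 21 weeks.

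The signal read by the miR-211-3p probes was detected at all ages. The probe sequences were not used here, so what these probes may bind besides miR-211-3p was not tested, and miR-211-5p of the same hairpin was detected on no array. The signal varied more between animals of a group, so that the standard errors of its sex differences were 0.266 to 0.298, against 0.109 to 0.121 for miR-204-5p. No sex difference of miR-211-3p was called at any age. The widest gap was at 8 weeks, where the male arrays gave 0.121, 0.133, 0.144 and 0.187 and the female arrays 0.217, 0.264, 0.280 and 0.401, which did not overlap. The difference was -0.97 (SE 0.298, 95% interval -1.57 to -0.38), 1.96-fold lower in males, with an adjusted p of 0.0507 just beyond the threshold. On the 3 slides with both sexes of this age the log2 differences were -1.10 to -0.59. Their sign follows from the lack of overlap. The call was made with slide as a fixed block (-1.01, adjusted p = 0.0312) and with slide as a random block (adjusted p = 0.0260). Of 18 alternatives, however, 12 left it uncalled. Over the 18 the difference was -1.05 to -0.23, with adjusted p up to 0.241.

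At 15 weeks the male arrays of miR-211-3p gave 0.193, 0.216, 0.217, 0.252 and 0.337. The female arrays gave 0.196, 0.353, 0.362, 0.389 and 0.433, the lowest of them being replicate 5, the array that lay on a slide of the younger ages. The difference was -0.49 (SE 0.266, adjusted p = 0.308). Without that array it was -0.69 (adjusted p = 0.107), and on the 4 slides with both sexes it was -1.01 to -0.71.

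At 21 weeks the male arrays of miR-211-3p gave 0.153, 0.160, 0.168, 0.231 and 0.257 and the female arrays 0.226, 0.274, 0.274 and 0.552. The ranges overlapped, and the difference was -0.72 (SE 0.282, 95% interval -1.28 to -0.15, adjusted p = 0.0982). Female replicate 4, with 0.552, carried much of it, and without this array the difference was -0.44 (adjusted p = 0.487). With quantile normalization the call was made (-0.82, adjusted p = 0.0286), and likewise with the 75th percentile over the 166 miRNAs that every array detected (-0.88, adjusted p = 0.0407). Of 18 alternatives, however, 15 left it uncalled. Over the 18 the difference was -0.88 to -0.27, with adjusted p up to 0.254.

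At the remaining ages the groups of miR-211-3p overlapped. The male arrays of 2 weeks gave 0.164, 0.267, 0.350, 0.386 and 0.390 and the female arrays 0.161 to 0.233, a difference of 0.56 (95% interval -0.00 to 1.13, adjusted p = 0.237). The differences at 5, 6, 78 and 104 weeks were 0.08, -0.04, -0.12 and 0.24, with adjusted p of 0.719 or above. Those at 5, 6 and 78 weeks turned their sign under some alternatives.

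**Figure D4:**
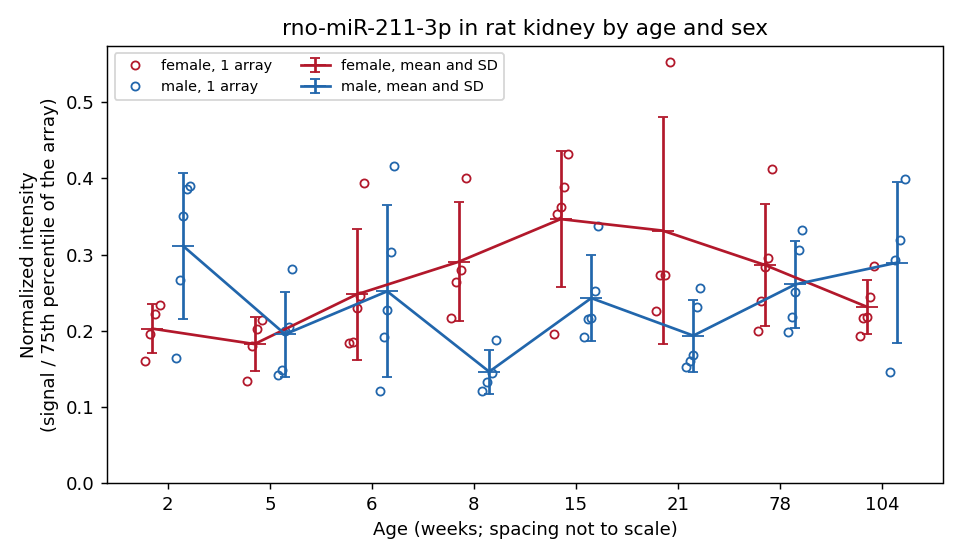
Normalized intensity of miR-211-3p (vertical axis, signal over the array's 75th percentile) at 8 ages (horizontal axis, in weeks, not to scale); circles are single arrays of females (red) and males (blue), and lines join group means with SD bars. Females of 8 weeks lie between 0.217 and 0.401, above the 4 males of that age, and the ranges of the sexes overlap at every other age.

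The sex difference of miR-211-3p varied over the ages with an adjusted interaction p of 0.0249, within the 27.7% of miRNAs that passed this test. The interaction did not pass without 2-week female replicate 6 (adjusted p = 0.0504) or without 8-week female replicate 2 (adjusted p = 0.0553). No change of the sex difference between consecutive ages was called for it.

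The age effect of miR-211-3p was called in females (adjusted p = 0.0452, widest gap 0.90 between 5 and 15 weeks, 1.86-fold) and not in males (adjusted p = 0.0609, widest gap 1.04 between 2 and 8 weeks, 2.06-fold). Whether the age effects differ between the sexes is given by the interaction above. The female call was lost without 22 of the 36 female arrays, each left out in turn, and within each block of ages (adjusted p = 0.229 and 0.373). The male effect passed without 6 of the 38 male arrays, each left out in turn.

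The only step of miR-211-3p that was called was from 2 to 5 weeks in males, in which 77 of 311 miRNAs were called (24.8%). The 5 arrays of 5 weeks gave 0.143, 0.149, 0.200, 0.205 and 0.282, against the values of 2 weeks given above, and the ranges overlapped. The difference was -0.65 (SE 0.266, adjusted p = 0.0408), or 1.57-fold lower. Without single arrays it ranged from -0.86 to -0.54, and the call was lost for 6 of 10 arrays left out.

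All 15 neighbours in the order of the 16 group means of miR-211-3p overlapped in their ranges. The highest mean was that of 15-week females, 0.347 ± 0.0895 (SD, n = 5), and the lowest that of 8-week males, 0.146 ± 0.0290 (SD, n = 4). The spread within groups was seen by both probes, which correlated at r = 0.966 over the arrays and at 0.966 after group means were removed.

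**Figure D5:**
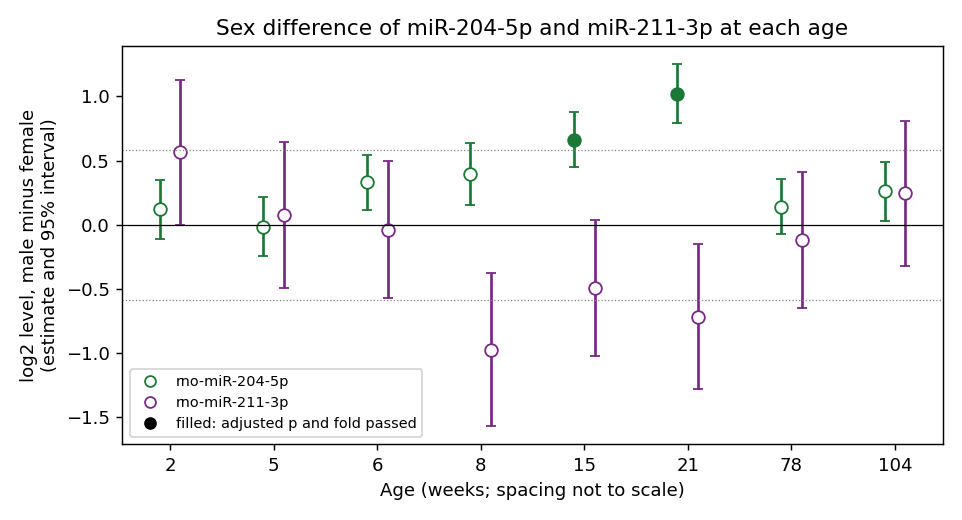
Log2 sex difference, male minus female (vertical axis), of miR-204-5p (green) and miR-211-3p (purple) at each age in weeks (horizontal axis, not to scale) with 95% intervals; filled points passed the adjusted p and the 1.5-fold threshold, which dotted lines mark. The points of miR-204-5p at 15 (0.66) and 21 weeks (1.02) are filled. Those of miR-211-3p lie below zero at 6, 8, 15, 21 and 78 weeks and are not filled at any age.

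The miRNAs were also set against each other within an array, as the log2 level of miR-204-5p minus that of miR-211-3p, whose sex difference does not depend on the scaling between arrays. Its absolute size depends on the probes and has no meaning of its own. At 21 weeks it was 2.13 ± 0.340 (SD, n = 5) in males and 0.39 ± 0.448 (SD, n = 4) in females, with no overlap. The gap of 1.74 had a p of 0.00794, the smallest that a two-sided exact permutation test allows here, and 0.0635 after adjustment over the 8 ages. At 8 weeks the gap was 1.37 (exact p = 0.0286, adjusted 0.0762) and at 15 weeks 1.16 (exact p = 0.0159, adjusted 0.0635). At the other 5 ages it lay between -0.45 and 0.37, with exact p of 0.190 or above. No age passed after adjustment, and a single age alone could not have passed with groups of this size. The gap at each age is the sex difference of miR-204-5p minus that of miR-211-3p, both given above. The comparison was added after these values had been seen and is no separate evidence.

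Between animals of the same group the correlation of miR-204-5p with miR-211-3p was near 0. Over the 74 arrays, after group means were removed, Pearson's r was 0.00 (permutation p = 0.971, labels permuted within groups) and Spearman's rho was 0.01 (permutation p = 0.924). Without the 2 arrays farthest from the median of miR-204-5p, r was 0.08. This was the single relation of this kind that was computed.

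The pattern of miR-204-5p over the 16 group means was set beside those of 227 other miRNAs that were detected on at least 50% of the arrays. The closest was miR-505-3p (r = 0.84), followed by miR-598-3p (0.79), miR-128-3p (0.75), miR-101a-3p (0.74) and miR-191a-3p (0.74). All values are over 16 group means that share the arrays and their scaling and are a description. MiR-211-3p was 111th of the 227 with r = -0.01. At the other end were miR-210-3p (-0.64), miR-130b-3p (-0.67) and miR-674-5p (-0.68).

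MiR-505-3p also had a higher level in males of 21 weeks (0.71, adjusted p = 0.000564) and fell in males from 21 to 78 weeks (-0.73). Each call was made under 4 of 7 other scalings or background corrections. The 7, here and below, include settings that change the floor alone. Those left the differences of these miRNAs unchanged and so do not test them. Among the other 4 closest miRNAs, the sex difference at 21 weeks lay between 0.20 and 0.43 and was not called. MiR-210-3p, a miRNA induced under low oxygen, had lower levels in males of 15 weeks (-0.60), which was called under 3 of 7 others. Beyond the settings of the floor, the call was made only without scaling between arrays.

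Other miRNAs of tubules and epithelia were taken as a list. Of 15 such miRNAs, all were on the array and 14 were detected, each on all 74 arrays, among them miR-192-5p and miR-194-5p of the proximal tubule, the epithelial miR-200 family and the miR-30 family. None of the 14 was called between the sexes at 15 or at 21 weeks, where 3.54% and 4.82% of all miRNAs were called, so that a list of this size would hold few calls or none at these shares. At 15 weeks miR-10a-5p (-0.42, adjusted p = 5.60e-05), miR-429, miR-200b-3p and miR-200c-3p were lower in males with adjusted p under 0.05 but folds under 1.5. The median differences of the 14 were -0.07 and 0.10, and those of all 311 miRNAs -0.03 and 0.05. The first turned to 0.19 when the percentile was taken over all 677 miRNAs and the second to -0.03 with quantile normalization. In males from 21 to 78 weeks the median of the list was -0.25, against -0.09 for all miRNAs, but -0.17 with the percentile over all 677 miRNAs and -0.05 with quantile normalization. In this step 1 of 14 was called, miR-30b-5p (-0.75, adjusted p = 0.000607), which was called under 4 of 7 other scalings. MiR-192-5p (-0.47, adjusted p = 5.51e-06), miR-194-5p (-0.54, adjusted p = 1.16e-05), miR-141-3p, miR-429, miR-30c-5p and miR-10b-5p also fell with adjusted p under 0.05, but with folds under 1.5. Age effects were called for 5 of the 14 in females and 6 in males, beside 36.7% and 45.3% of all miRNAs, and the interaction for 10, beside 27.7%. These counts moved with the scaling, to 3, 10 and 3 of 14 when the percentile was taken over all 677 miRNAs and to 2, 8 and 5 of 14 with quantile normalization.

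The summed level of that list overlapped between the sexes at 15 weeks (154 to 170 in females, 140 to 159 in males) and at 21 weeks (149 to 172 and 153 to 173). In males of 78 weeks it lay at 114 to 147, below all 21-week males. The part of tubule content in the step of miR-204-5p was not tested.

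Markers of other cells moved with some of these groups. Of 5 leukocyte miRNAs, 4 were on the array and detected, miR-142-3p, miR-150-5p and miR-223-3p on all arrays and miR-142-5p on 10. Their summed level was 2.73 to 3.21 in males and 2.45 to 2.66 in females of 15 weeks, 3.08 to 3.70 and 2.50 to 2.97 at 21 weeks, and 4.05 to 7.10 in males of 78 weeks. None of the 4 was called between the sexes at 15 or 21 weeks (median differences 0.09 and 0.38), although 1 of them was called higher in males of 15 weeks under quantile normalization and under the percentile taken over all 677 miRNAs. MiR-223-3p was higher in males of 21 weeks (0.40, adjusted p = 0.0108) with a fold under 1.5. MiR-142-3p, which is specific to blood cells, rose in males from 21 to 78 weeks (adjusted p = 1.30e-05, called under 7 of 7 other scalings). MiR-223-3p (0.55, adjusted p = 3.64e-05) and miR-150-5p (0.28, adjusted p = 0.0278) rose in the same step with folds under 1.5. At 15 and 21 weeks males were thus at higher summed levels of leukocyte miRNAs as well as of miR-204-5p, whereas in males of 78 weeks the sum was above that of 21 weeks and miR-204-5p below. The part of leukocyte content in the values of miR-204-5p was not tested.

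The mesenchymal and endothelial lists had no calls in these comparisons. In males from 21 to 78 weeks miR-199a-5p (0.36), miR-199a-3p (0.23) and miR-214-3p (0.35) rose and miR-143-3p (-0.23) fell. Each had an adjusted p under 0.05 and a fold under 1.5. Of 5 mesenchymal and smooth muscle miRNAs (medians -0.08 at 15 and -0.04 at 21 weeks, which turned to 0.18 and 0.03 with the percentile of all 677 miRNAs) and of 2 endothelial miRNAs (0.17 and 0.10), none was called between the sexes at these ages or between males of 21 and 78 weeks. Of 3 erythroid miRNAs, 2 were on the array, of which miR-144-3p was detected on 5 arrays. The other, miR-451-5p, was called from 21 to 78 weeks in males (0.72, adjusted p = 0.00327), and under 5 of 7 other scalings. MiR-144-3p went the other way in this step (-0.49, adjusted p = 0.0114), with a fold under 1.5. With quantile normalization both were called, 1 of them higher at 78 weeks. MiR-144-3p was also higher in males than in females of 21 weeks (0.49, adjusted p = 0.0363), with a fold under 1.5. The summed level of the 2 was 1.14 to 2.18 in males of 21 weeks and 2.01 to 3.13 in those of 78 weeks. Neither erythroid miRNA was called between the sexes at 15 or 21 weeks, and 1 was with another scaling at each of these ages.

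MiRNAs of neural, melanocyte and retinal cells were listed because miR-211 is known from such cells. MiR-124-3p, the defining miRNA of neurons, was detected on 0 arrays, and the other 4 of the 5 on all. At 15 weeks 1 of 4 was called between the sexes, miR-183-5p, lower in males (-0.91, adjusted p = 3.84e-07, called under 6 of 7 others), and at 21 weeks none was, against 1 with quantile normalization. MiR-183-5p (-0.53, adjusted p = 0.00595) and miR-96-5p (-0.47, adjusted p = 0.0425) were lower in males of 21 weeks with folds under 1.5. The summed level of the 4 was 2.07 to 3.22 in females and 1.47 to 1.81 in males of 15 weeks, and 2.53 to 2.82 and 1.81 to 2.05 at 21 weeks. In males from 21 to 78 weeks 1 of 4 was called, miR-9a-5p (-0.73, adjusted p = 0.00309, called under 4 of 7 others). The part of such cells in the values of miR-211-3p was not tested.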

How the data were processed

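Whole kidney RNA of 74 F344 rats was hybridized by the authors to Agilent rat miRNA arrays. The deposited scanner files hold intensity values: per the file headers, Feature Extraction 10.7.3.1 subtracted background and gave a total gene signal from 20 spots of each miRNA, not normalized between arrays and set to 0.1 where undetected. The authors' table holds a ratio to each array's 75th percentile, but 69 of its 74 columns equal the scanner file of another sample than the one they name. Which of them is wrongly labelled was not tested: the scanner files' labels were taken as right, which every sex and age difference rests on, and the table served only for older names (miR-204 and miR-211*).

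Each signal was divided by the array's 75th percentile over the 311 detected miRNAs (81.2 to 283), raised to a common floor of 0.0171 and taken to log2. Contrasts were fitted with limma 3.58.1 in R 4.3.3 over 16 group means (58 residual degrees of freedom), after tests on simulated data. An age effect within a sex needed an adjusted p below 0.05 and some 2 ages that differed by 1.5-fold or more with an unadjusted p below 0.05, and an interaction the adjusted p alone. Other scalings, floors, filters, single probes, slide and replicate blocks, the methods' tests and each array left out were tried.

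The members, lists and tests were chosen with earlier results of these data known. The comparison within arrays, values within slides and correlation of the members were added after values had been seen. Named miRNAs were the forms of miR-204 and miR-211, the 5 most and 3 least like miR-204-5p, and up to 4 called members of each list. Replicate numbers did not pair the arrays: deviations from group means of a female and a male array of the same age and number correlated at 0.04 on average (28 pairs), and with other numbers at -0.00 (143 pairs). Arrays of other groups on the same slide correlated at 0.16 (238 pairs), against -0.01 on other slides (2327 pairs), and slide was a term only in the alternatives.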

Additional observations from a re-analysis of the deposited data

Results flagged for a closer look

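In 32 groups of 4 or 5 arrays, 2 arrays lay apart from the rest of their group by Dixon's ratio, about as many as the 1 in 20 that chance gives. For miR-204-5p, 15-week female replicate 1 had 0.301 against 0.374 to 0.400 for the others (ratio 0.762). For miR-211-3p, 15-week female replicate 5 had 0.196 against 0.353 to 0.433 (ratio 0.743), and it was the array of that age on a slide of younger animals.

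The effects of sex differed between ages for both members. The adjusted interaction p was 5.21e-06 for miR-204-5p and 0.0249 for miR-211-3p, and the sex difference of miR-204-5p changed by -0.88 from 21 to 78 weeks.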

How the results depend on the processing

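The 15- and 21-week sex differences of miR-204-5p and its male age effect kept their direction under all alternatives tried, and the age effect its call. Without scaling between arrays the sex differences were 0.45 and 0.96 and not called, and with normexp, which adds an offset of 50 to every signal, 0.32 and 0.42 with folds under 1.5. In the same settings the female age effect of miR-204-5p (1.16 and 0.25), its male step to 78 weeks (-0.90 and -0.34) and its change of the sex difference to 78 weeks (-0.43 and -0.27) were not called, nor was the interaction without scaling (adjusted p = 0.930). The step was also lost with the 75th percentile over the 166 miRNAs that every array detected (-0.57), the change of the sex difference with it over all miRNAs (-0.71), and the female age effect with the younger (0.44) or older ages (0.21) alone. With the dimmer probe alone, the male steps of miR-204-5p to 8 (0.62) and 21 weeks (0.66) were called.

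Uncalled sex differences changed their sign as follows. That of miR-204-5p at 2 weeks was -0.045 with the percentile over the 166 miRNAs, -0.032 with quantile normalization and -0.026 with normexp, and at 5 weeks 0.38 without scaling, 0.0063 with the brighter probe alone and -0.069 to 0.056 without single arrays. That of miR-211-3p at 5 weeks was -0.016 and at 6 weeks 0.0029 with the brighter probe, and without single arrays these ranged from -0.067 to 0.18 and from -0.25 to 0.20. At 78 weeks it was 0.12 with the percentile over all miRNAs, 0.064 with quantile normalization, 0.27 without scaling, 0.017 with normexp and -0.24 to 0.023 without single arrays.

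The sex difference of miR-211-3p at 8 weeks passed at an unchanged -0.97 when fewer miRNAs were tested and when all 8 ages were adjusted together. It also passed by the unadjusted exact permutation test, and with slide as a fixed (-1.01) or random block (-1.0001). A pass was also seen with all 677 miRNAs tested, but that setting adds miRNAs that no array detected to the fit. Passes under it, here and for the male age effect below, are therefore no support. Without single arrays the difference at 8 weeks was -1.10 to -0.81, and it passed without 8-week female replicate 6 or male replicate 3. At 21 weeks it passed with the percentile over the 166 miRNAs (-0.88), with quantile normalization (-0.82) and by the unadjusted exact test (-0.72). Of 18 alternatives, 12 at 8 weeks and 15 at 21 weeks left the difference uncalled. The female age effect of miR-211-3p was lost with the percentile over the 166 (0.79) or all miRNAs (0.82), normexp (0.32), the brighter probe (0.77), the methods' ANOVA (0.90, adjusted p = 0.0503) and the younger (0.66) or older ages (0.55) alone, and ranged from 0.76 to 1.09 without single arrays. With the replicate number as a block it was 0.76 (adjusted p = 0.0704), and the block changed no other call of the members. The male age effect passed with these percentiles (1.22 and 0.99), without scaling (1.31), with the dimmer probe (1.098), with all miRNAs tested (1.04) and with slide as a random block (1.08), and ranged from 0.94 to 1.25 without single arrays. The male step of miR-211-3p to 5 weeks was lost with both percentiles (-0.57 and -0.64), quantile normalization (-0.44), normexp (-0.17), the brighter probe (-0.59) and all miRNAs tested (-0.65), and ranged from -0.86 to -0.54 without single arrays. Its interaction had adjusted p of 0.00614 to 0.0553 without single arrays.

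Counts of sex-different miRNAs depended on the setting. Over the alternatives, miRNAs called were 0 to 23 at 2 weeks, 0 to 3 at 6, 0 to 18 at 8, 0 to 21 at 15, 2 to 19 at 21, 4 to 29 at 78 and 2 to 25 at 104 weeks, and 0 at 5 weeks throughout. Age effects were called for 43 to 124 miRNAs in females and 59 to 158 in males. The interaction was called for 19 to 107 miRNAs in settings that tested detected miRNAs only. With all 677 miRNAs tested it was called for 477. These are more than the 311 that any array detected, so undetected miRNAs were among them. That setting also gave the highest counts of sex differences at 8 and 104 weeks and of age effects in females. The male steps to 5 and 78 weeks were called for 24 to 88 and 4 to 41, and the change of the sex difference to 78 weeks for 1 to 26. Tests of the arms of miR-204 were not run, and age effects with slide as a fixed block were not fitted, as the younger and older males share no slide. Of the spots of miR-204-5p and miR-211-3p, 90.1% and 99.3% were well above background.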
